A study of Mus musculus with 6 samples.

Results

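Transcripts of 38 genes of glycolysis and the hypoxia response were examined in mouse acute myeloid leukaemia cells with and without Dnmt3b, an enzyme of de novo DNA methylation. Members were found by gene symbol among array rows that carry exactly 1 symbol, with the row of highest mean kept for each gene. This gave 36 of the 38 genes, out of 30141 genes in all. Gpi1 and Eno1, the isomerase and enolase of glycolysis, were not analysed here because no row carried their symbol alone. The study holds 6 Affymetrix arrays of total RNA: 3 of leukaemia cells from littermate controls and 3 of Dnmt3b-KO leukaemia cells. In both groups the leukaemia was induced with the fusion oncogene MLL-AF9, and cells were collected from bone marrow of recipient mice at end-stage disease and sorted by flow cytometry. The sources used here do not give the deleted exons, any Cre driver, the sorting markers, or the age, strain and number of mice. Nothing in the labels ties an array to a mouse of its own. The p-values therefore reflect only the spread among these 6 samples, part or all of which may be technical. Of 12 genes fixed as markers of myeloid leukaemia cells 10 were measured and 9 lay above the median gene, among them Mpo, Elane, Kit and Ptprc, while Flt3 lay below it.

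Glycolysis splits glucose into pyruvate. Glucose enters through SLC2A transporters, is trapped by hexokinases, is committed by phosphofructokinase and ends as pyruvate through pyruvate kinase. Lactate dehydrogenase interconverts pyruvate and lactate, monocarboxylate transporters move lactate across the membrane, and pyruvate dehydrogenase kinases hold pyruvate back from mitochondria. When oxygen is short, prolyl hydroxylases of the EGLN family no longer mark the HIF alpha subunits for destruction, and HIF raises transcription of many of these enzymes and of genes for vessel growth, pH control and mitophagy. HIF alpha is controlled mainly at the protein level, so its transcript level does not measure its activity. Bone marrow is a tissue of low oxygen tension, and leukaemia cells are known for a high rate of glycolysis.

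HIF binds a core of 5 letters, ACGTG or GCGTG, on either strand. These letters were searched in RefSeq promoter windows of assembly GRCm38.p6 that reach from 250 bases before to 50 bases after a transcript start. The promoter table held windows for 35 of the 38 genes and none for Slc2a3, Bnip3l and Epas1. Of these 35 genes 33 (94.3%) had a match in at least 1 window, against 46.7% of all 27025 genes in the table. Genes can have several windows, and per window the shares were 78.8% of 52 member windows and 43.8% of all 32851. Member windows were also richer in CG, with a median of 20 CG dinucleotides per window against 7 over all windows, and both core motifs contain CG. Among windows with at least 20 CG dinucleotides, 25 of 28 member windows (89.3%) and 73.6% of all 8701 windows held a match. ACGTG on both strands forms CACGTG, which is also an E-box, the letters bound by MYC and MAX. A match describes letters and is not a measured binding site.

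The 250 bases before the start are shown for 5 genes named in the results below. Ldhb and Pdk1 passed the test, and Egln3 was far lower on 1 array, Dnmt3b-KO replicate 3. Slc2a1 and Ankrd37 had the largest and the smallest difference of the 6 genes that exceeded replicates 1 and 2 there by more than 1. Capitals mark the core letters on either strand, and sequences run 5′ to 3′ on the strand of the gene. Where a gene has several starts, the window with the most CG is shown.
Ldhb, chr6:142507958-142508207, minus strand: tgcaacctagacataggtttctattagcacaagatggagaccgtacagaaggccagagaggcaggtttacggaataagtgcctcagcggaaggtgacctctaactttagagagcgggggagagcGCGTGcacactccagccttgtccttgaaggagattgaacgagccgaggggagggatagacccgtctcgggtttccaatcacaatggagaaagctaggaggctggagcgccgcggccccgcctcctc
Pdk1, chr2:71872974-71873223, plus strand: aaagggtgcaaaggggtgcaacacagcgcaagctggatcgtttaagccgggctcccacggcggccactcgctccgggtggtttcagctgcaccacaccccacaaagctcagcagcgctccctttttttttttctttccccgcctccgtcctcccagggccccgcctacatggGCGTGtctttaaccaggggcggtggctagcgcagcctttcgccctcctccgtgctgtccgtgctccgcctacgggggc
Slc2a1, chr4:119108495-119108744, plus strand: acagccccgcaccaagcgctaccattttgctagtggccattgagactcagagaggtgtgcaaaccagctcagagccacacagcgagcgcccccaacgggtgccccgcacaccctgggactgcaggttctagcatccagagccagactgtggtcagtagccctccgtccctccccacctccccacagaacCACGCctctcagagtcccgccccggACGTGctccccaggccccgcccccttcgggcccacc
Ankrd37, chr8:45999851-46000100, minus strand: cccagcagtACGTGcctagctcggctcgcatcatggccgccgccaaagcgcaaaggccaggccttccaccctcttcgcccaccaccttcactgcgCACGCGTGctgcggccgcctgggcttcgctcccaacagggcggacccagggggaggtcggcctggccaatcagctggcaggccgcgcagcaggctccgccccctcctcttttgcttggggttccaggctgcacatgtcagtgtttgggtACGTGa
Egln3, chr12:54203875-54204124, minus strand: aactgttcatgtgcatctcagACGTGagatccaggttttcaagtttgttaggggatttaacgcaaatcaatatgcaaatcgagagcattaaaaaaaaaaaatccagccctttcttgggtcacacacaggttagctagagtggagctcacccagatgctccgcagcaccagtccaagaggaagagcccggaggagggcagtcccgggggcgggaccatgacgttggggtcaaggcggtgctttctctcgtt
The window of Ankrd37 held 4 matches, that of Slc2a1 2, and those of Ldhb, Pdk1 and Egln3 1 each. Overlapping matches on opposite strands were counted separately, as in CACGCGTG of Ankrd37 and CACGTG of Slc16a1. On the same 250 bases Slc16a1 had 4 matches, P4ha1 3 and Aldoc 1. These genes were higher on Dnmt3b-KO replicate 3 than on replicates 1 and 2, by 1.34, 1.67 and 1.9. Pdk3, lower there, also had 4 matches. Whether the number of matches goes with the values was not tested.

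Values are log2 expression as the authors deposited them, and the median gene measured 4.79. Array medians ran from 4.75 to 4.85. The targeted gene, Dnmt3b, had a control mean of 6.79 ± 0.04 (SD, n = 3). Dnmt3b-KO replicates 1, 2 and 3 had values of 6.47, 6.63 and 5.96 for it. All 3 Dnmt3b-KO values lay below every control, although the difference did not pass (limma, adjusted p = 0.78 over 6 arrays and 0.16 over 5). Dnmt3b-KO replicate 3 stood apart, with a correlation across genes of 0.981 to 0.982 with the other 5 arrays against 0.998 to 0.999 among those. It carried transcripts of the Y chromosome, with Uty at 7.98 against 4.11 to 4.20 on the others. Results are therefore given over all 6 arrays, over the 5 arrays without it, and for that array apart. A gene passes when the Benjamini-Hochberg adjusted p over 30141 genes is under 0.05.

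Over 6 arrays none of the 36 genes passed, and neither did any other gene (0% called); 4 of the 36 and 6.37% of all genes (9.25% of genes above the median gene) had an unadjusted p under 0.05 (limma). Of these 4, Pdk1, Bnip3 and Vegfa were higher, against 2.79% of all genes and 3.69% of genes above the median gene, and Pfkl was lower, against 3.58% and 5.56%. The smallest adjusted p among the 36 was 0.66. The median change was 0.05, against -0.0036 over all genes. The control and Dnmt3b-KO values did not overlap for 6 of the 36 (16.7%), against 14.9% of all genes and 18.8% of genes above the median gene, where 34 of the 36 lie. These 6 were Pkm, Pdk1 and Vegfa on the higher side (6.68% of all genes, 7.23% of those above the median gene) and Pfkl, Pdk3 and Egln3 on the lower side (8.21% and 11.6%). The share of the 36 without overlap is thus near that of all genes and below that of genes above the median gene.

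Over 5 arrays 3 of the 36 genes rose and 0 fell. They were Ldhb, a lactate dehydrogenase subunit that favours the use of lactate, Pdk1, a kinase that switches off pyruvate dehydrogenase, and Bnip3l, a receptor for the removal of mitochondria. The share that rose, 8.33%, stands beside 0.939% of all genes and 1.82% of genes above the median gene, while 0.75% of all genes and 1.43% of those above the median gene fell. In either direction 1.69% of all genes and 3.26% of those above the median gene passed. Of the 36 genes 24 had changes below 0 (66.7%, against 53.7% of all genes and 51.2% of those above the median gene), and the median change of the 36 was -0.07 against -0.01 over all genes. At an unadjusted p under 0.05, 6 were higher (Ldhb, Pdk1, Pdk2, Bnip3l, Vegfa and Car9) and 7 lower (Slc2a1, Slc2a3, Hk2, Pfkm, Pdk3, Egln3 and P4ha1), which is 36.1% of the 36 against 15.5% of all genes and 24.2% of genes above the median gene. By direction the shares were 7.74% higher and 7.73% lower over all genes, and 12.5% and 11.8% above the median gene. The values of replicates 1 and 2 did not overlap the controls for 20 of the 36 (55.6%), 8 higher and 12 lower, against 32.5% of all genes and 41.2% of those above the median gene. By direction these were 15.1% higher and 17.4% lower over all genes, and 21.1% and 20.1% above the median gene. The comparison over 5 arrays was set apart with earlier results of these data known.

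**Figure D1:**
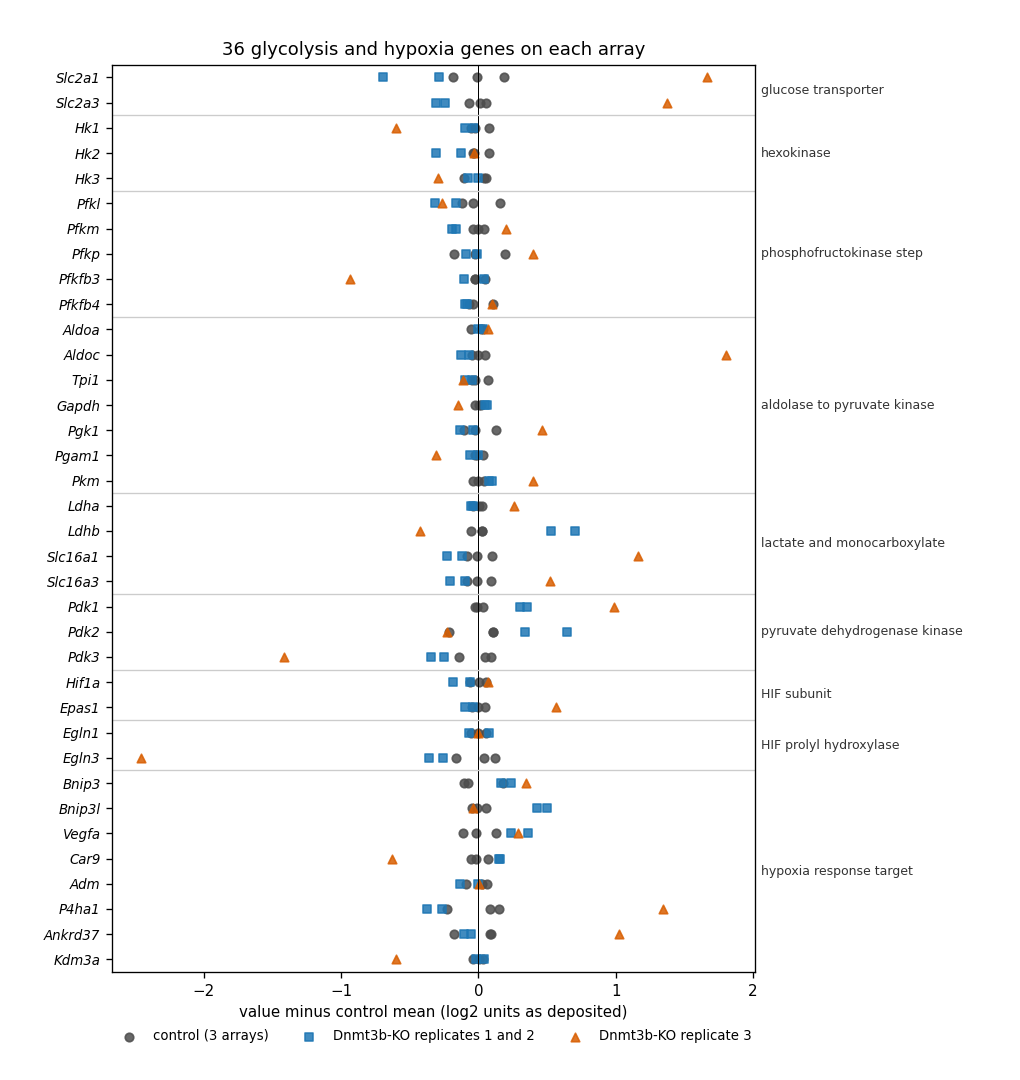
Value of each of the 36 genes on each array minus its control mean, in log2 units as deposited; rows are genes grouped by role, circles are the 3 controls, squares Dnmt3b-KO replicates 1 and 2, triangles Dnmt3b-KO replicate 3. Ldhb, Pdk1 and Bnip3l show squares to the right of the controls, whereas the triangle lies far from the squares for genes such as Slc2a1, Aldoc, P4ha1 and Egln3.

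Ldhb had the largest positive change of the 36 over 5 arrays. It measured 6.72, 6.64 and 6.72 in control replicates 1, 2 and 3, and 7.40 and 7.22 on Dnmt3b-KO replicates 1 and 2. Both lay above every control, and the rise was 0.62 ± 0.07 (SE; limma, adjusted p = 0.023). Dnmt3b-KO replicate 3 measured 6.27, below every control. Over 6 arrays the change of Ldhb was 0.27 ± 0.30 (limma, adjusted p = 0.85). Its paralogue Ldha, which favours making lactate from pyruvate, measured 11.33, 11.38 and 11.40 in control and 11.33, 11.32 and 11.63 in Dnmt3b-KO. The first 2 of these lay at the low end of the controls or just under it, and the last lay above them. The change of Ldha over 5 arrays was -0.04 with a 95% interval from -0.17 to 0.09. The intervals of both lactate dehydrogenase genes do not overlap, but the difference between them was not tested.

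Of the 3 pyruvate dehydrogenase kinases only Pdk1 passed, and the signs of their changes differed. Pdk1 measured 7.90, 7.93 and 7.88 in control, and 8.25, 8.21 and 8.89 in Dnmt3b-KO. All 3 Dnmt3b-KO values lay above every control. Pdk1 rose by 0.33 ± 0.05 (SE) over 5 arrays (limma, adjusted p = 0.049), and its change over 6 arrays was 0.55 ± 0.19 (adjusted p = 0.73). Pdk2, a further isoform of the kinase, measured 6.12, 5.81 and 6.12 in control and 6.66, 6.36 and 5.79 in Dnmt3b-KO, so that only replicates 1 and 2 lay above the controls. Its change over 5 arrays, 0.49 ± 0.13, did not pass (limma, adjusted p = 0.15). Pdk3, encoded on the X chromosome, measured 8.89, 8.93 and 8.70 in control and 8.59, 8.49 and 7.42 in Dnmt3b-KO. All 3 Dnmt3b-KO values lay below every control, opposite to Pdk1, with a change of -0.30 ± 0.09 over 5 arrays and -0.67 ± 0.32 over 6 that did not pass (limma, adjusted p = 0.17 and 0.82). Beside the low value of Pdk3 on replicate 3, the X-linked RNA Xist also measured lower there, 15.44 against 16.66 to 16.79 on the others; its part in the result was not tested.

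Bnip3l, also called NIX, measured 10.13, 10.03 and 10.07 in control and 10.57, 10.50 and 10.03 in Dnmt3b-KO. The first 2 of these, replicates 1 and 2, lay above every control and replicate 3 lay within them. The rise over 5 arrays was 0.46 ± 0.06 (SE; limma, adjusted p = 0.031), and the change over 6 arrays was 0.30 ± 0.15 (adjusted p = 0.82). The row of Bnip3l is annotated with 2 gene identifiers, of which the other belongs to its pseudogene Bnip3l-ps, so its signal cannot be assigned to the gene alone. BNIP3L clears mitochondria in maturing red cells. Of 10 measured erythroid markers 9 had changes below 0 over 5 arrays, against 53.7% of all genes. The exception was Tfrc, at 0.26, and 5 of the 10 lay above the median gene. The mean level of the 10 was 5.51 to 5.87 in control and 5.15 to 5.34 on replicates 1 and 2. None of the 10 passed, and their part in the result was not tested. In sorted bulk samples, fewer cells of a type and less RNA per cell cannot be told apart. Its relative Bnip3, a mitophagy receptor and HIF target, measured 7.13, 7.39 and 7.10 in control and 7.37, 7.45 and 7.56 in Dnmt3b-KO, with overlapping groups and a change over 5 arrays of 0.20 ± 0.10 (limma, adjusted p = 0.42).

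These 3 rises rest on few arrays. A fit with the replicate number as a block ended the call of all 3. Leaving out any 1 further array ended the call of each, with adjusted p from 0.058 to 0.15 for Ldhb, 0.10 to 0.27 for Pdk1 and 0.071 to 0.20 for Bnip3l, and a test without empirical Bayes ended all 3; Pdk1 also missed the threshold with a variance trend and robust fit (limma, adjusted p = 0.060) and after repeated quantile normalization (0.058).

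**Figure D2:**
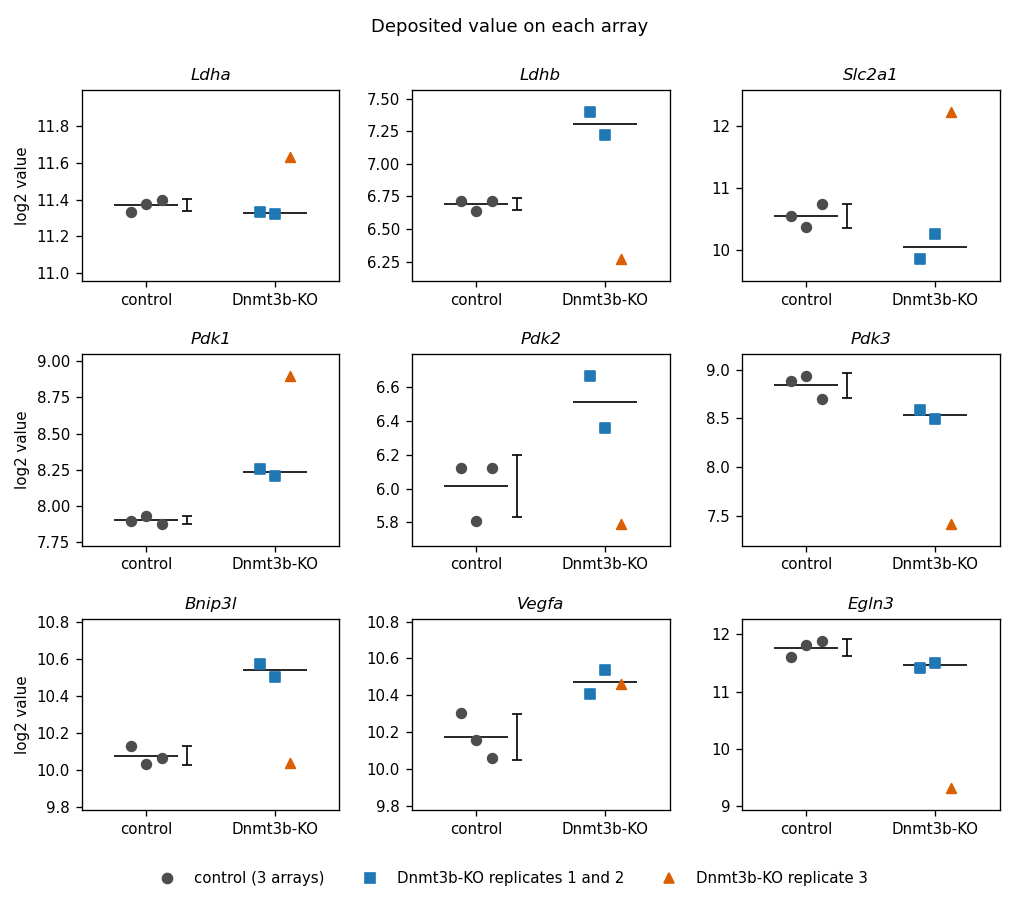
Deposited log2 value of 9 genes on each array, with circles for the 3 controls, squares for Dnmt3b-KO replicates 1 and 2 and a triangle for replicate 3; lines are the control mean and the mean of replicates 1 and 2, the bar is the SD of the controls, and vertical axes differ and do not start at 0. For Ldhb and Pdk2 the triangle lies below both squares, for Pdk1 and Slc2a1 above them, and for Vegfa between them.

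At the entry of glucose, both transporter genes were below the controls on Dnmt3b-KO replicates 1 and 2. Slc2a1, the widespread glucose transporter GLUT1, measured 10.54, 10.36 and 10.74 in control, 9.85 and 10.26 on replicates 1 and 2, and 12.21 on replicate 3. Replicates 1 and 2 thus lay below every control and replicate 3 far above. The change over 5 arrays, -0.49 ± 0.15, was the most negative of the 36 and did not pass (limma, adjusted p = 0.20). The change over 6 arrays was 0.23 ± 0.61 (adjusted p = 0.94), positive with replicate 3 and negative without it. Slc2a3, which encodes the high-affinity transporter GLUT3, had the same arrangement, with 6.20 to 6.33 in control, 5.96 and 6.03 on replicates 1 and 2 and 7.65 on replicate 3. Its change over 5 arrays was -0.28 ± 0.06 (limma, adjusted p = 0.11).

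The hexokinases, which phosphorylate glucose, had changes of -0.22 to -0.04 over 5 arrays and none passed. Hk2, the inducible isoform, measured 9.32, 9.20 and 9.21 in control and 8.93, 9.12 and 9.21 in Dnmt3b-KO. Of these, replicates 1 and 2 lay below every control and replicate 3 among them, with a change over 5 arrays of -0.22 ± 0.08 (limma, adjusted p = 0.25). Hk3, the myeloid isoform, and Hk1 had 95% intervals over 5 arrays from -0.21 to 0.13 and from -0.22 to 0.09.

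At the phosphofructokinase step all 5 measured genes had changes below 0 over 5 arrays, and none passed. Among the subunits, Pfkl measured 8.75 to 9.03 in control and 8.56, 8.71 and 8.61 in Dnmt3b-KO, and was below every control on all 3. Its change was -0.24 ± 0.10 over 5 arrays (limma, adjusted p = 0.32). Pfkp, the platelet-type subunit, measured 10.21, 10.58 and 10.36 in control and 10.29, 10.37 and 10.78 in Dnmt3b-KO. For Pfkp, replicates 1 and 2 lay within the controls and replicate 3 above them, and the change over 5 arrays was -0.05 with an interval from -0.32 to 0.22. Pfkm had a change of -0.18 ± 0.06 (adjusted p = 0.20). Of the enzymes that make and degrade the activator fructose 2,6-bisphosphate, Pfkfb3 measured 7.96 on replicate 3 against 8.80 to 8.95 on all other arrays, and Pfkfb4 differed by -0.09 ± 0.07 over 5 arrays.

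From aldolase to pyruvate kinase the changes over 5 arrays ran from -0.10 for Aldoc to 0.09 for Pkm, and none of the 7 measured genes passed. Pkm, which makes pyruvate, measured 13.74, 13.77 and 13.82 in control and 13.86, 13.88 and 14.18 in Dnmt3b-KO. All 3 Dnmt3b-KO values of Pkm were above every control, by small margins, and the change was 0.19 ± 0.10 over 6 arrays (limma, adjusted p = 0.83). The 95% intervals over 5 arrays were -0.13 to 0.15 for Aldoa, -0.17 to 0.10 for Pgam1, -0.22 to 0.08 for Tpi1 and -0.07 to 0.18 for Gapdh. The Gapdh row also carries the identifier of a pseudogene, Gapdh-ps15, on the Y chromosome. Pgk1 had 2 rows: the kept row is named for chromosome 12, where the reference lists a pseudogene, Pgk1-rs7, while the gene itself is on X. The kept row had a change of -0.08 and the X row one of -0.01 over 5 arrays, and both were highest on replicate 3, at 16.24 and 14.49.

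The monocarboxylate transporters Slc16a1 and Slc16a3, which carry lactate, had the arrangement seen for the glucose transporters. Slc16a1 measured 10.23 to 10.41 in control, 10.08 and 10.20 on replicates 1 and 2, and 11.48 on replicate 3. Slc16a3, the exporter MCT4, measured 7.57 to 7.75, then 7.45 and 7.56, and 8.18. The changes over 5 arrays were -0.17 ± 0.08 and -0.15 ± 0.07 (limma, adjusted p = 0.35 and 0.41).

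**Figure D3:**
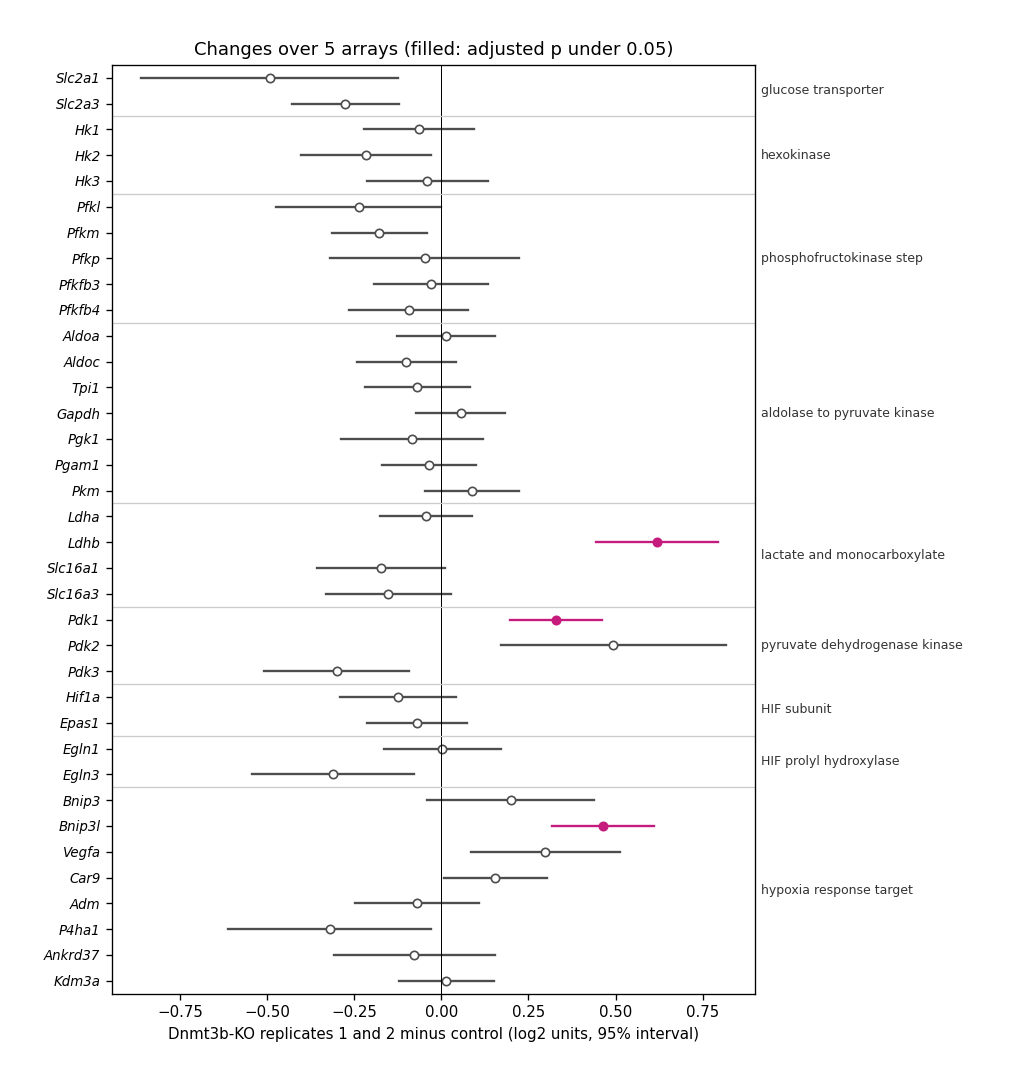
Change of each of the 36 genes between Dnmt3b-KO replicates 1 and 2 and the 3 controls, in log2 units, with 95% intervals from limma; rows are grouped by role and filled points passed at an adjusted p under 0.05. Ldhb, Bnip3l and Pdk1 are the filled points, and Pdk1 and Pdk2 lie on the other side of 0 from Pdk3.

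The transcripts of the oxygen sensing system itself did not pass. Hif1a, the main HIF alpha subunit, measured 11.78, 11.83 and 11.71 in control and 11.58, 11.71 and 11.84 in Dnmt3b-KO, with overlapping groups and a 95% interval over 5 arrays from -0.29 to 0.04. Epas1, which encodes HIF2 alpha, measured 4.08, 4.13 and 4.18 in control and 4.03, 4.09 and 4.69 in Dnmt3b-KO. These values lie below the median gene, so little can be said of it. Egln1, the main HIF prolyl hydroxylase, measured 11.30, 11.41 and 11.35 in control and 11.28, 11.43 and 11.35 in Dnmt3b-KO. The groups of Egln1 overlapped, and the interval over 5 arrays ran from -0.16 to 0.17. Egln3, a hydroxylase that is itself induced by HIF, measured 11.60, 11.81 and 11.89 in control and 11.41, 11.51 and 9.31 in Dnmt3b-KO. All 3 Dnmt3b-KO values were below every control, and replicate 3 was lower than the rest by far. The change of Egln3 was -0.31 ± 0.10 over 5 arrays and -1.02 ± 0.60 over 6 (limma, adjusted p = 0.20 and 0.83).

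Of the 8 genes grouped here as targets of the hypoxia response only Bnip3l passed over 5 arrays. The other groups also hold genes that HIF can raise, such as Egln3, and Pdk1 and Ldhb passed in those groups. Vegfa, the vessel growth factor, measured 10.30, 10.16 and 10.06 in control and 10.41, 10.54 and 10.46 in Dnmt3b-KO. Its 3 Dnmt3b-KO values lay above every control and near each other, replicate 3 included. The change of Vegfa was 0.30 ± 0.08 over 6 arrays, with the smallest p of the 36 there (limma, unadjusted p = 0.012, adjusted p = 0.66), and 0.30 ± 0.09 over 5 (adjusted p = 0.18). Car9, a carbonic anhydrase that handles acid, measured 6.75 and 6.74 on replicates 1 and 2 against 6.54 to 6.66 in control, and 5.96 on replicate 3. P4ha1, a collagen prolyl hydroxylase subunit, measured 9.04 to 9.42 in control, 8.90 and 9.01 on replicates 1 and 2 and 10.62 on replicate 3. Kdm3a, a histone demethylase, had an interval over 5 arrays from -0.12 to 0.15. Ankrd37 had a change of -0.08 ± 0.10, and Adm, the gene of adrenomedullin, lay below the median gene on all arrays, at 3.38 to 3.58.

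Dnmt3b-KO replicate 3 differed from the mean of replicates 1 and 2 by more than 1 for 9 of the 36 genes (25%), against 6.97% of all genes and 12.3% of genes above the median gene. This is a description of 1 array, with no test. The 6 genes that were higher there (16.7% of the 36, against 4.03% of all genes and 6.49% of those above the median gene) were Slc2a1 by 2.16, Aldoc by 1.9, P4ha1 by 1.67, Slc2a3 by 1.65, Slc16a1 by 1.34 and Ankrd37 by 1.10. Aldoc, an aldolase isoform, measured 7.35 there and 5.42 to 5.59 on the other arrays, and Ankrd37, a HIF target of unclear function, 6.64 and 5.45 to 5.71. The 3 lower genes (8.33%, against 2.94% of all genes and 5.85% of those above the median gene) were Egln3 by -2.15, Pdk3 by -1.12 and Ldhb by -1.04. Values outside the controls were common on this array. Of the 36 genes 18 (50%) lay above every control, against 39% of all genes and 29.5% of those above the median gene, and 13 (36.1%) lay below, against 36.4% and 55.7%. The 4 transporters of glucose and lactate among the 36 were above, and the enzymes were mixed, with Aldoa, Aldoc, Pgk1, Pkm, Pfkm, Pfkp and Ldha above every control and Hk1, Hk3, Pfkl, Pfkfb3, Tpi1, Gapdh, Pgam1 and Ldhb below. Transporters of the same families outside the 36 were mixed too: against the control mean Slc2a6 differed by 1.27, Slc2a8 by -0.10 and Slc16a7 by -0.94, each outside the controls. For 7 of the 36 genes (19.4%, against 6.09% of all genes and 6.38% of those above the median gene) replicates 1 and 2 lay below every control and replicate 3 above every control: Slc2a1, Slc2a3, Pfkm, Aldoc, Slc16a1, Slc16a3 and P4ha1. The reverse held for Gapdh, Ldhb, Pdk2 and Car9 (11.1%, against 6.22% of all genes and 11.2% of those above the median gene), a share at that background.

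**Figure D4:**
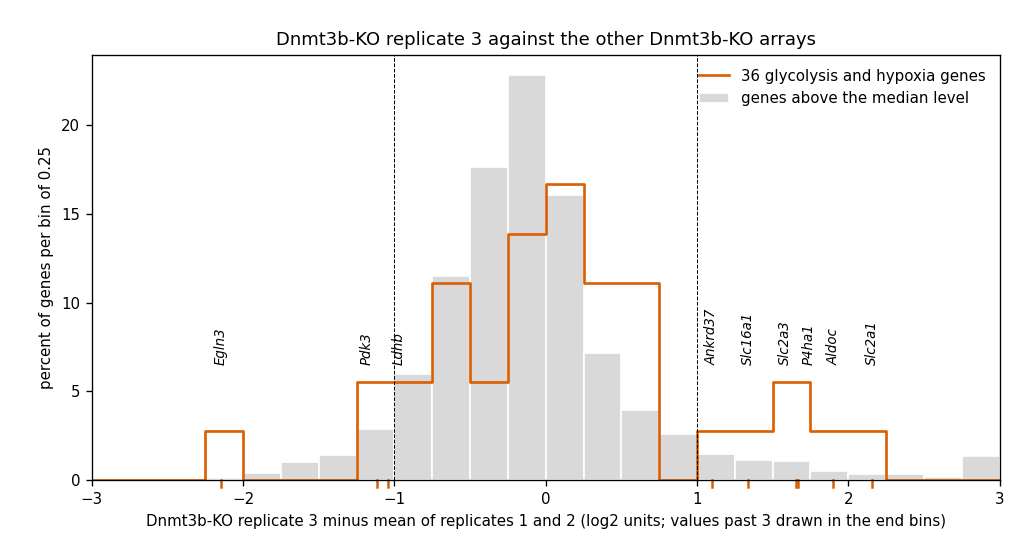
Difference between Dnmt3b-KO replicate 3 and the mean of replicates 1 and 2, in log2 units on the horizontal axis, as percent of genes per bin; grey bars are genes above the median gene, the orange line the 36 glycolysis and hypoxia genes, and dashed lines mark a difference of 1. Of the 36 genes 6 lie past 1 on the higher side and 3 on the lower side, each named.

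Markers of macrophages moved with that array. Of 19 measured monocyte and macrophage markers, 13 were higher there than on replicates 1 and 2 by more than 1 and 2 lower, and their mean level was 11.55 against 8.11 to 8.34 on the other 5 arrays. None of the markers was listed at 0, as array values have no zero; 16 of the 19 lay above the median gene. The part of macrophage transcripts in the high values of Slc2a1, Slc2a3, Slc16a1, P4ha1 and Aldoc was not tested. Over replicates 1 and 2 the mean level of these markers, 8.17 to 8.34, lay near that of the controls, 8.11 to 8.31. Single markers moved both ways: over 5 arrays 12 had changes above 0 and 7 below. These ran from -0.38 for Ly6c2, which passed, to 0.66 for F13a1, which did not. Lymphoid and stromal markers, with mean levels of 4.86 to 5.23 on all arrays, gave 0 calls. Of 11 lymphoid markers 2 lay above the median gene, as did 3 of 10 stromal and endothelial markers. Among these Nkg7, Cd79b, Pecam1 and Pdgfrb were lower on replicate 3 than on replicates 1 and 2 by more than 1. That held for 2.94% of all genes and 5.85% of those above the median gene, where these markers lie. Of either list 0 markers were higher on replicate 3 by as much.

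Further genes of the same pathways were taken from lists that exclude the 36. Of 30 other glycolysis and pyruvate genes, 6 pentose phosphate genes and 39 other HIF pathway and target genes, 0 passed in either comparison, with median changes over 5 arrays of 0.0040, -0.03 and 0.03. The HIF genes with the smallest p were Wsb1, a HIF-induced ubiquitin ligase subunit, Siah2, a ligase that degrades hydroxylases of the EGLN family, and Stc2, a secreted glycoprotein. Wsb1 measured 12.71 to 12.80 in control and 13.08, 13.04 and 13.42 in Dnmt3b-KO, above every control, with a change of 0.29 ± 0.06 over 5 arrays (limma, adjusted p = 0.081). Siah2 measured 10.32 to 10.50 in control and 9.96, 10.18 and 9.84 in Dnmt3b-KO, below every control, with a change of -0.34 ± 0.09 (adjusted p = 0.14). Stc2 had a change of -0.25 ± 0.07 (limma, adjusted p = 0.16). Its control mean, 4.65, lay below the median gene, and replicate 3 measured 5.93, above every control. Among glycolysis genes the smallest p belonged to Fbp1, which runs the phosphofructokinase step backwards, at 0.45 ± 0.11, to Gpd2, of the glycerol phosphate shuttle, at -0.27 ± 0.08, and to the pyruvate carrier gene Mpc1, at 0.13 ± 0.05 (limma, adjusted p = 0.13, 0.19 and 0.31). On replicate 3 Fbp1, Gpd2 and Mpc1 lay below every control, at 6.54, 10.46 and 6.99, so that Fbp1 and Mpc1 were opposite there to replicates 1 and 2. Among pentose phosphate genes the smallest p belonged to H6pd, Taldo1 and Rpe, with changes of -0.14 to -0.04.

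On replicate 3 the mean level of the 6 pentose phosphate genes was 9.76 there and 10.39 to 10.54 on the other arrays. Among the 39 other HIF genes, 4 exceeded the mean of replicates 1 and 2 by more than 1 and 0 fell short of it by as much: Ndrg1 by 3.83, Hmox1 by 2.42, Ak4 by 1.78 and Stc2 by 1.53, named after their values were seen. That is 10.3% of the list, against 4.03% of all genes and 6.49% of those above the median gene, and the median difference of the list was 0.04. Others were lower there by less than 1, such as Angptl4 by -0.78, Kdm4c by -0.57 and Cited2 by -0.56. Hmox1, heme oxygenase, is also a macrophage gene.

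Immediate early and heat shock genes, listed as possible signs of sample handling, also differed between arrays. Nothing in the labels ties their values to handling. Their mean level over 15 measured genes was 9.33, 9.47 and 9.70 in control and 9.65, 10.12 and 9.90 in Dnmt3b-KO. For 7 of the 15 all 3 Dnmt3b-KO values lay above every control, and for 2, Hspa1a and Hsp90aa1, below. Over all genes 6.68% lay above in this way and 8.21% below. Of genes above the median gene these were 7.23% and 11.6%. The changes over 5 arrays were 1.92 for Fosb, 1.70 for Dusp1, 1.66 for Jun, 1.20 for Fos and 0.93 for Zfp36, each larger than any change among the 36 genes. They did not pass (limma, adjusted p = 0.077, 0.063, 0.14, 0.12 and 0.17) and they also spread among the controls, as Dusp1 did from 13.16 to 14.18. The other 2 above were Atf3 and Nr4a1, at 0.09 and 0.17. For Egr1, Ier2, Ier3 and Btg2 the groups overlapped, with changes over 5 arrays of -0.31, 0.13, -0.03 and 0.18. The chaperone gene Hsph1 alone passed and fell by 1.06. Hspa1a, Hsp90aa1 and Dnajb1 also had changes below 0 over 5 arrays, at -0.53, -0.20 and -0.12. The mean of the list thus joins opposite directions. Hspa1a, with a mean of 3.91, lay below the median gene. The part of the immediate early and heat shock genes in the changes of the glycolysis and hypoxia genes was not tested. Mast cell, basophil and eosinophil markers fell in 6 of 10 cases and rose in 1 over 5 arrays, against 0.75% and 0.939% of all genes. Among genes above the median gene, where 8 of the 10 lie, these shares were 1.43% and 1.82%. Among the monocyte and macrophage markers 1, Ly6c2, fell. Of the leukaemia cell markers Meis1 rose and Cd34 fell.

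**Figure D5:**
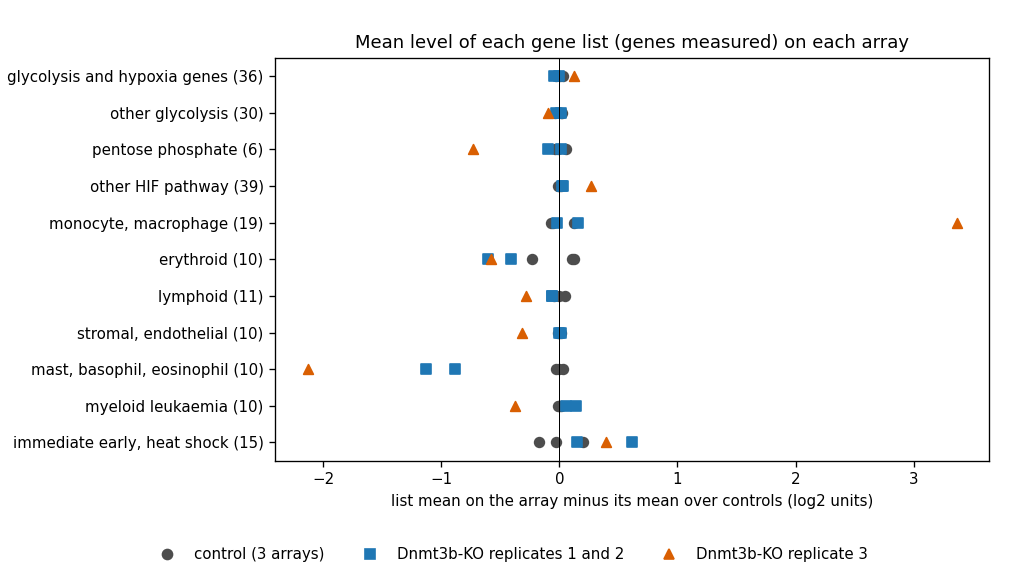
Mean level of each gene list on each array minus the mean of the 3 controls, in log2 units, with the number of measured genes in brackets; circles are controls, squares Dnmt3b-KO replicates 1 and 2, triangles Dnmt3b-KO replicate 3. The glycolysis and hypoxia genes stay near 0 as a list on all arrays, while monocyte and macrophage markers lie far to the right on replicate 3.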

How the data were processed

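RNA of 3 control and 3 Dnmt3b-KO leukaemia samples was measured on 6 arrays. The authors deposited log2 values normalized with RMA, per the submitters' processing notes; no version is given. Deposited gene values reach 19.59, past 16, the log2 of a 16-bit scanner range, so differences are not converted to folds. Of 72688 rows, 30604 carried exactly 1 symbol in the platform annotation and 2146 carried several; 813 symbols were updated by gene identifier, leaving 30141 genes. Groups were compared with limma 3.58.1 in R 4.3.3 (lmFit, eBayes, Benjamini-Hochberg over all genes), tested on simulated data first. The number of arrays limits the precision. Values on each array are given for members that passed, for members whose groups do not overlap over 6 arrays with a change of at least 0.3, and for Hif1a, Epas1, Egln1, Slc2a1, Hk2, Pfkp, Pkm and Ldha whatever their values, with further genes where they help. Of the other pathway lists, genes that passed are named, or else the 3 with the smallest p over 5 arrays. The members and lists were chosen with earlier results of these data known. Alternatives were a variance trend with robust fit, array weights, repeated quantile normalization, centring, a filter on dim genes, mean of rows, no empirical Bayes, the replicate number as a block, and leaving out each array. Sequences are from RefSeq (GRCm38.p6). Figures were drawn with matplotlib 3.10.9.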

Additional observations from a re-analysis of the deposited data

How the results depend on the processing

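Over 6 arrays the 0 called genes became 103 with array weights and 0 to 509 with 1 array left out; the 0 called among the 36 stayed 0 except without Dnmt3b-KO replicate 3 (0 to 3). Over 5 arrays 509 genes passed; this count was 995 with dim genes left out, where fewer genes are tested, 0 without empirical Bayes, 96 with the replicate block and 13 (without Dnmt3b-KO replicate 1) to 264 (without control replicate 2) with 1 more array left out. The 3 called among the 36 became 0 without empirical Bayes, 0 with the replicate block and 0 to 0 with 1 more array left out. Deviations from the group means had correlations of 0.13, 0.03 and 0.11 between same-numbered arrays and -0.12 to 0.09 between the others. These values cannot decide whether the numbers mark pairs, because replicate 3 weighs on the Dnmt3b-KO mean. The labels do not state pairs, so the main fits did not use the numbers. The change of Slc2a1 over 6 arrays, 0.23, turned to -0.38 with array weights. Smaller changes also turned sign: with array weights over 6 arrays Pfkp (-0.0097), Ldha (-0.034), Epas1 (-0.040) and Egln1 (0.025), Egln1 also after repeated quantile normalization (0.042), and over 5 arrays Kdm3a with the replicate block (-0.0050). With 1 array left out the ranges over 6 arrays were -0.49 to 0.69 for Slc2a1, -0.048 to 0.20 for Pfkp, -0.043 to 0.11 for Ldha, -0.12 to 0.0051 for Hif1a, -0.070 to 0.26 for Epas1 and -0.038 to 0.034 for Egln1. Over 5 arrays they were -0.14 to 0.051 for Pfkp, -0.10 to 0.042 for Pfkfb3, -0.014 to 0.033 for Aldoa, -0.069 to 0.075 for Egln1 and -0.015 to 0.044 for Kdm3a. The cause of these differences was not tested. Ldhb, Pdk1 and Bnip3l stayed above control under every alternative run over 5 arrays.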
